A study of Python bivittatus with 8 samples.

Results

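In the left ventricle of the Burmese python (Python bivittatus), 179 of the 21368 genes in the count table met a rule for a spike. By this rule they were higher 1 day after a meal and had lost at least 50% of their rise by day 4. The study sequenced poly-A RNA from 8 libraries, 2 for each of 4 conditions. The fasted snakes had gone 28 days without food, and the others were sampled 1 day (1DPF), 4 days (4DPF) or 6 days (6DPF) after rodent meals of 25% of their own weight. All were labelled WT, came from captive breeding, weighed about 2 kg and had gone through the same fast. The labels' protocol gives 6 snakes for the sequencing and proteomics work, fewer than the 8 libraries. It does not say how the snakes were divided, so n = 2 counts libraries, and their spread may be in part technical. Library totals lay between 33203808 and 42250755 counts.

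The python heart is a textbook case of growth without disease. After a large meal the ventricle gains mass within days, mainly because its muscle cells enlarge, and then shrinks back as digestion ends. Such growth calls for a burst of synthesis of protein, RNA and membrane, and shrinkage for its end and for protein breakdown. The series' title links the shrinkage to FoxO1, a transcription factor that insulin signalling keeps out of the nucleus and that drives genes of protein breakdown in muscle. In the series' design, 1DPF stands for growth, 4DPF for early and 6DPF for later regression.

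The members were chosen from these same libraries, on L = log2(CPM + 1), where CPM is the count scaled to the library total. The 1DPF mean had to be at least 3, which 10582 genes reached. A mean at least 1 above fasted left 563 genes, and a mean at least 1 above 6DPF left 323. A 6DPF mean within 0.585 of fasted left 276, and both 1DPF libraries above all 4 fasted and 6DPF libraries left 273. Of these, 179 had returned at least 50% of the way from 1DPF to fasted at 4DPF. The remaining 94, which met every other clause, are called the still raised genes and serve as the comparison. All 4 groups entered the choice, so the levels below describe the members and were not tested as a group. Genes carry numbers in the file, and nothing pairs these numbers with names. No role is therefore given to any member, the labelled tissue was not checked against marker genes, and only 4 identifiers are printed. In bulk tissue, fewer cells of a type and less RNA per cell cannot be told apart.

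Together the 179 members took 0.696% and 0.643% of the counts in the fasted libraries. Their share was 2.1% and 2.06% in the 1DPF libraries, 0.981% and 0.936% in the 4DPF libraries, and 0.67% and 0.619% in the 6DPF libraries. The summed level was thus 20958 and 20620 CPM at 1DPF, against 6960 and 6427 CPM in fasted ventricle. The libraries of a group lay close together, and both 4DPF libraries stood above all fasted and 6DPF ones and far below both 1DPF ones. The median member had 14.2 and 14.1 CPM in the fasted libraries, 41.1 and 40.9 CPM in the 1DPF libraries, 19.5 and 17.9 CPM in the 4DPF libraries and 14.1 and 13.1 CPM in the 6DPF libraries. A few abundant genes carried much of the sum: the 10 highest members held 44.7% of it at 1DPF.

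**Figure D1:**
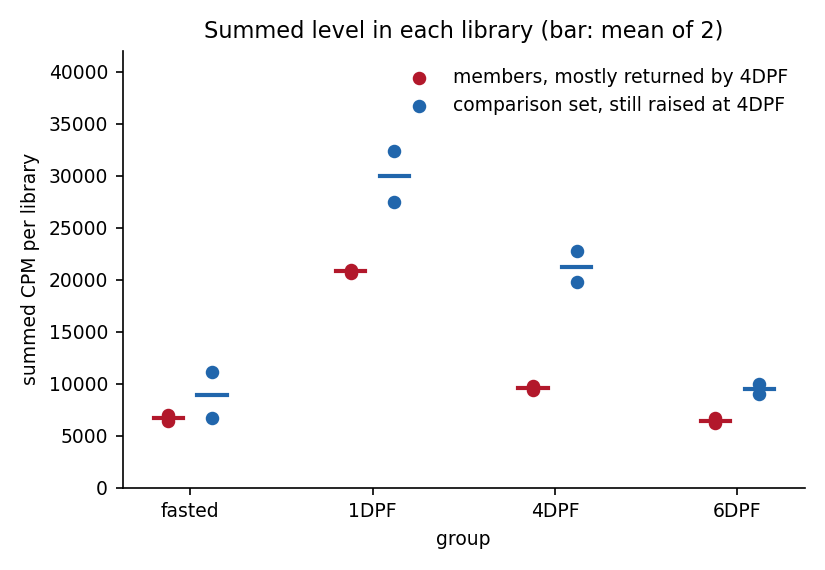
Summed CPM in each library (points) and the mean of the 2 libraries (short horizontal lines) by group, for the 179 members and for the 94 still raised genes. The members' sums at 4DPF, 9810 and 9356 CPM, sit nearer to the fasted sums than to the 1DPF sums. The still raised genes keep 22733 and 19803 CPM there. Much of that sum lies in the genes of 1455 bases (7947 and 5517 CPM) and 1707 bases (5149 and 4953 CPM). The median still raised gene has 40.4 and 37.9 CPM at 4DPF, against 55.8 and 51.3 CPM at 1DPF. The rule's limit on the return by 4DPF is the only clause that divides the sets. Their contrast in return there is thus set by the choice, and nothing is read from it.

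The spike was moderate in most members. The median 1DPF minus fasted difference was 1.34 on the log2(CPM + 1) scale, with quartiles of 1.19 and 1.66 and a highest value of 4.28. Of the 179, 124 had a rise of less than 3-fold, 55 of at least 3-fold, 23 of at least 4-fold and 4 of at least 8-fold on that scale. Sorted by 1DPF level, the 60 lowest members (median 14.1 CPM) had a median rise of 1.40. The next 59 (43.2 CPM) had 1.34 and the 60 highest (154 CPM) 1.32. The rule bounds every rise from below at 1, which in part holds these 3 medians together. The 44 members with a 1DPF mean of 100 to 1000 CPM had a median rise of 1.27, and the 5 above 1000 CPM had 2.04. Over all 10582 genes with a 1DPF mean of at least 3, the median difference was 0.07.

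**Figure D2:**
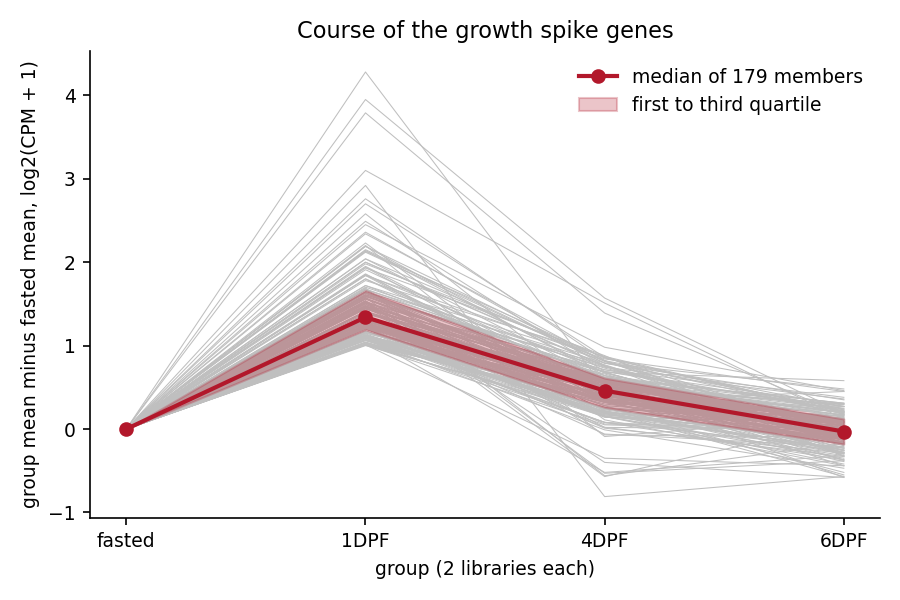
Group mean minus the fasted mean, log2(CPM + 1), for each of the 179 members (grey lines), with their median (red line) and interquartile range (band), in the order fasted, 1DPF, 4DPF and 6DPF. The median peaks with 1.34 at 1DPF, is 0.46 by 4DPF and ends with -0.03 by 6DPF.

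Gene 103062969 (2876 bases) was the clearest large spike, with 107 and 71.8 CPM in the fasted libraries and 1210 and 1558 CPM in the 1DPF libraries. It then had 303 and 228 CPM in the 4DPF libraries and 117 and 85.5 CPM in the 6DPF libraries. The 1DPF and 4DPF levels stood apart from each other and from all the rest, and the 6DPF and fasted levels overlapped. It averaged 1384 ± 246 CPM at 1DPF and 89.4 ± 24.8 CPM in fasted ventricle (SD, n = 2 each). At 4DPF its level of 266 ± 53.6 CPM (SD, n = 2) was still 1.58 above fasted in log2 (SE 0.27, edgeR quasi-likelihood adjusted p = 0.0198). That call was lost when 4DPF replicate 1 (edgeR adjusted p = 0.0776), fasted replicate 1 (0.0638) or fasted replicate 2 (0.147) was dropped, and over all alternatives run the adjusted p lay between 1.21e-07 and 0.147.

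Gene 103064339 (2933 bases) had the largest 1DPF minus fasted difference of all members by mean, 4.28, but its libraries disagreed, and it did not pass the test (edgeR adjusted p = 0.0511; between 0.00719 and 0.273 over the alternatives run). It had 312 and 19.5 CPM at 1DPF, against 1.33 and 6.27 CPM in fasted ventricle. Later it had 1.23 and 13.9 CPM at 4DPF and 0.923 and 2.95 CPM at 6DPF. Most of the difference therefore came from 1DPF replicate 1, and its 4DPF libraries differed by more than its fasted ones. Its 6DPF minus fasted difference of -0.58 lay just inside the limit.

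The member ranked 3 by rise (3368 bases) had low levels in fasted and 6DPF ventricle. It had 18.7 and 20.8 CPM at 1DPF, against 0.753 and 0.274 CPM in fasted ventricle, and 3.65 and 2.29 CPM at 4DPF followed by 0.615 and 0.745 CPM at 6DPF. The 1DPF levels stood far above all others, the 4DPF levels lay between them and the rest, and the 6DPF levels were within the fasted range. The low fasted levels rest on 25 and 10 counts and differed more between libraries than the 1DPF levels. The gene was called higher at 4DPF than fasted (edgeR log2 change 2.55, SE 0.44, adjusted p = 0.021), a call lost without 4DPF replicate 1 and without either fasted library. In all, 14 members had under 3 CPM in both fasted libraries and 2 had under 1 CPM, and no member had a count of 0 in any library.

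At the other end of the range, 5 members exceeded a mean of 1000 CPM at 1DPF. The highest of them (2316 bases) had 1562 and 1366 CPM at 1DPF, against 329 and 251 CPM in fasted ventricle, and 578 and 440 CPM at 4DPF. The next (1723 bases) had 1421 and 1485 CPM at 1DPF, against 614 and 377 CPM in fasted ventricle, and 740 and 906 CPM at 4DPF. Per kilobase of gene length this shorter gene was the most abundant member at 1DPF, at 843 CPM per kilobase, and stood in place 88 of all genes at 1DPF, against place 245 in fasted ventricle. Of the 1000 highest genes per kilobase, 8 were members in fasted ventricle, 22 by 1DPF, 11 by 4DPF and 7 by 6DPF.

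The members had returned a median of 67.8% of their rise by 4DPF, with quartiles of 58.7% and 80.5%. The rule sets the lower end at 50%, and the members crowd towards it: 49 had returned less than 60%, 55 from 60% to 70%, 29 from 70% to 80%, 26 from 80% to 90%, 9 from 90% to 100%, and 11 had passed the fasted mean. The 3 members nearest the limit had returned between 51.3% and 51.5%, and the 3 still raised genes nearest to it between 49.7% and 49.9%. The 2 sets are thus a cut through a continuous range. Across the 179 members the share returned had a Pearson's r of 0.11 with log2 length, -0.02 with the size of the rise and -0.12 with the 1DPF level. The median return was 72.4% in the 60 members with the smallest rise, 62.6% in the next 59 and 66.4% in the 60 with the largest, so it did not follow the rise in 1 direction. The rise is the divisor of the share returned, the 1DPF mean enters both, and the rule bounds each of them from below. Nothing is therefore read from how the share goes with the rise or the 1DPF level. All of these are descriptions across genes that share the same 8 libraries.

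**Figure D3:**
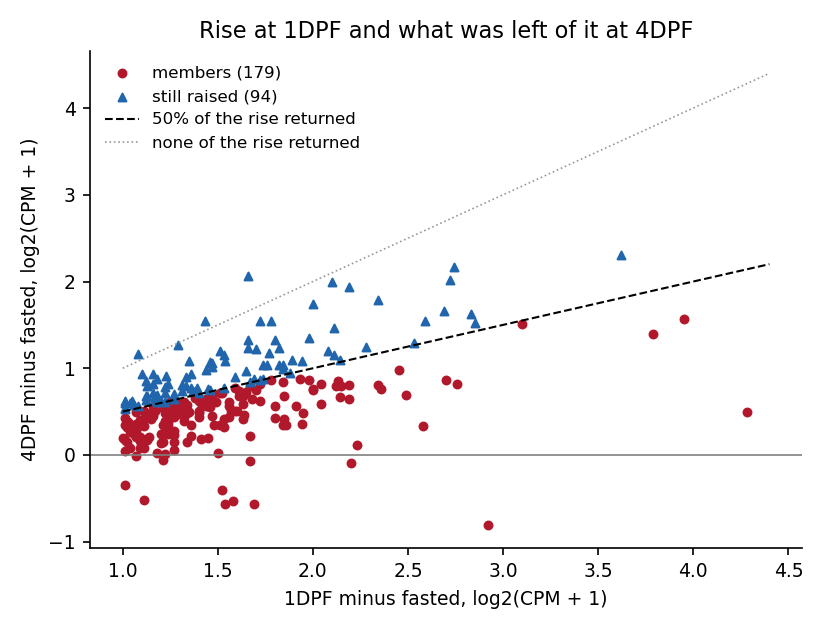
1DPF minus fasted (x) and 4DPF minus fasted (y), both in log2(CPM + 1), for the 179 members (circles) and the 94 still raised genes (triangles), with the line of 50% return (dashed) and of no return (dotted). Points lie on both sides of the dashed line with no gap, and 11 members fall below 0.

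At 4DPF most members still had means above fasted. The median 4DPF minus fasted difference was 0.46 (quartiles 0.26 and 0.61), and both 4DPF libraries lay above both fasted libraries in 124 of the 179 members, a position held by 31.2% of the 10582 genes. The groups overlapped in 51 members. Both 4DPF libraries lay below both fasted ones in 4 (34.5% of the 10582 genes). In the edgeR fit, 28 members were called higher at 4DPF than fasted (4.54% of all 16986 tested genes were) and 0 lower (4.02% of all tested genes). At an edgeR unadjusted p under 0.05, 81 were higher (14.8% of all tested genes) and 1 was lower (13.6%). DESeq2 called 52 higher (9.02% of the genes it tested) and 1 lower (7.54%). The rule bounds this difference from above, so nothing is read from these counts. The same holds for their shifts with the libraries used, for which no share over all tested genes is given. The 28 calls became 0 without 4DPF replicate 1 and 0 without fasted replicate 1 or 2 (edgeR, with between 60 and 74 members at an unadjusted p under 0.05 in either direction). They became 4 when 4DPF replicate 2 was dropped and 18 when either 1DPF library was.

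Gene 103052612 (2022 bases) lay furthest below fasted at 4DPF. It had 572 and 363 CPM at 1DPF, the fifth largest rise, and then 31.7 and 35.6 CPM at 4DPF, against 39.2 and 90.2 CPM in fasted ventricle. Both 4DPF libraries were under both fasted ones, but the fasted libraries differed by far more than the 4DPF ones. Its log2 change of -0.93 at 4DPF against fasted (SE 0.36) did not pass the edgeR quasi-likelihood test (adjusted p = 0.142), and over the alternatives run it lay between -1.38 and -0.18, with adjusted p between 0.0431 and 0.775. At 6DPF it had 37.2 and 42.5 CPM, which overlapped the fasted levels (edgeR log2 change -0.75, SE 0.36, adjusted p = 0.357).

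Gene 103053589 (2062 bases) had 69.9 and 63.1 CPM at 1DPF and then 12.2 and 17.3 CPM at 4DPF, against 21.4 and 22.9 CPM in fasted ventricle. Its 4DPF and fasted levels did not overlap, yet the log2 change of -0.57 at 4DPF against fasted (SE 0.31) did not pass the edgeR quasi-likelihood test (adjusted p = 0.26; between 0.112 and 0.634 over the alternatives run). The 6DPF libraries, at 34.2 and 16 CPM, lay on both sides of the fasted ones.

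The members' levels at 6DPF were mostly lower than at 4DPF. The 6DPF mean was below the 4DPF mean in 172 of the 179, and in 4625 of the 10582 genes. The members' median difference was -0.46, against 0.04 over the 10582 genes. The still raised genes, whose choice keeps 4DPF higher, had a median of -0.81, with a lower 6DPF mean in all 94. The fall was thus not particular to the members. Both 6DPF libraries lay below both 4DPF libraries in 128 members (20.7% of the 10582 genes) and above them in 2 (27.6%). No single member passed the edgeR quasi-likelihood test for this step, in which 0.0353% of tested genes were called lower and 0.053% higher. At an edgeR unadjusted p under 0.05, 100 members had a lower 6DPF level, as did 8.08% of all tested genes. DESeq2 called 51 members lower (2.56% of the genes it tested) and 0 higher (2.5%). Because the rule holds 6DPF near fasted, this step follows in part from the choice.

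At 6DPF the members had a median difference from fasted of -0.03, with 101 of the 179 below the fasted mean. Of the 10582 genes, 4997 were below it. Both 6DPF libraries lay above both fasted ones in 27 members (28.2% of the 10582 genes) and below them in 26 (21.1%), and the groups overlapped in the other 126. In the edgeR fit 0 members were called, where 0.365% of tested genes were called higher and 0.0471% lower. At an edgeR unadjusted p under 0.05, 3 members were higher (8.65% of all tested genes) and 8 lower (7.78%). DESeq2 called 0 higher (3.06%) and 0 lower (1.71%). The still raised genes, held to the same limit, had a median of 0.17 at 6DPF minus fasted and lay below fasted in 24 of 94. The fasted mean enters both this difference and the share returned that divides the 2 sets. A low fasted mean favours a place among the still raised genes and also a higher 6DPF minus fasted value. The gap between the 2 sets may thus follow from the choice, was not tested, and nothing is read from it.

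The contrasts that set the choice gave the following calls, from which nothing is read. At 1DPF against fasted, 166 members were called higher (9.58% of all tested genes), and the count was 85 without fasted replicate 2, while DESeq2 called 175 (12% of the genes it tested). At 4DPF against 1DPF, 92 were called lower (2.2% of all tested genes), and at 6DPF against 1DPF, 171 were (10.4%), with 177 by DESeq2 (12.2%). Both 4DPF libraries lay below both 1DPF ones in 172 members, as in 40.7% of the 10582 genes. The 92 calls moved with the libraries used: 2 were left when 1DPF replicate 2 or 4DPF replicate 1 was dropped, 18 when 4DPF replicate 2 was, 48 when 1DPF replicate 1 was, and 37 when either fasted library was. With all libraries, 172 members were lower at an edgeR unadjusted p under 0.05, as were 11.9% of all tested genes. DESeq2 called 146 (5.19% of the genes it tested). For the fits with a library left out, the share of all tested genes that was called is not given here. The lower counts in them are therefore not read as a trait of the members.

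The 1DPF libraries agreed for most members and parted for some. They were within 2-fold of each other in 162 of the 179, at least 2-fold higher in replicate 1 in 12 and at least 2-fold higher in replicate 2 in 5. A gap of this size was seen in 9.5% of the members, 7.45% of the still raised genes and 2.64% of the 10582 genes. Members also exceeded the 10582 genes in the other groups: fasted (3.35% against 0.576%), 4DPF (5.59% against 2.15%) and 6DPF (5.59% against 2.36%). The still raised genes had 3.19% in fasted, 6.38% at 4DPF and 3.19% at 6DPF, so such gaps were not particular to the members. The 162 had a median rise of 1.32 and a median return of 66.1%, close to the values for all members. They make up most of the 179, and the rule bounds both values from below, so little else was possible.

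The 12 members that were higher in 1DPF replicate 1 shared a further feature that the rule did not use. Their median levels were 5.09 and 6.03 CPM in the fasted libraries, 48.7 and 11.4 CPM in the 1DPF libraries, 6.21 and 10.6 CPM in the 4DPF libraries and 5.18 and 6.8 CPM in the 6DPF libraries. All 12 were higher in replicate 2 than in replicate 1 at 4DPF, 11 were so at 6DPF and 8 in fasted ventricle. Among the other members with 1DPF libraries within 2-fold, 40.1% were higher in replicate 2 at 4DPF, 34.6% at 6DPF and 42.6% in fasted ventricle. Over the 10582 genes the shares were 42.5% at 4DPF, 39.9% at 6DPF and 54.2% in fasted ventricle. The feature was not particular to members: of the 184 genes with a 1DPF mean of at least 3 and this excess, 162 (88%) were higher in 4DPF replicate 2. What these genes share with each other beyond the 8 libraries was not tested.

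**Figure D4:**
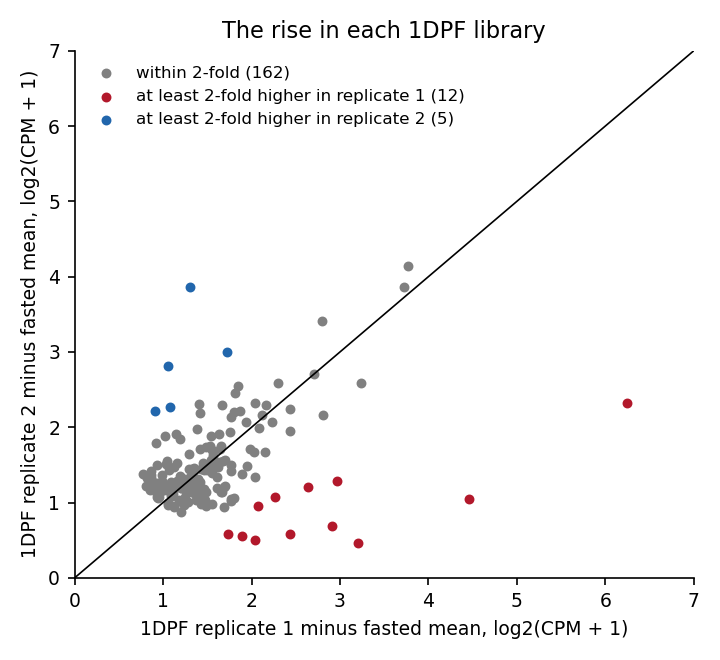
Rise over the fasted mean in 1DPF replicate 1 (x) and 1DPF replicate 2 (y), log2(CPM + 1), for each of the 179 members, with the line of equality. The 12 red points are at least 2-fold higher in replicate 1 and the 5 blue points at least 2-fold higher in replicate 2.

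Libraries that were kept out of the choice gave values it had not used, each set against group means that it had used. When a 1DPF library was left out, 217 genes (without replicate 1) and 284 genes (without replicate 2) met the rule, and 58.5% and 51.1% of them were at least 1 above the fasted mean in the library left out. Of all genes at the same minimum level, 5.73% and 4.97% were. When a 4DPF library was left out, 177 and 172 genes met the rule. Of these, 73.4% and 75.6% had returned at least 50% in the library left out, and the median return there was 64% and 65.3%. Of all genes with a rise of at least 1, 49.2% and 45.3% had. The 1DPF and fasted means behind these shares also chose the genes. The comparison genes did not have to meet the 6DPF clauses and include members, so nothing is read from the gap.

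With the rule applied to the replicate 1 libraries alone, 259 genes met it, and with the replicate 2 libraries alone, 207 did, of which 46 were the same. In the other libraries the rise was at least 1 in 43.6% of the 259 and 51.2% of the 207, against 5.61% and 5.63% of all genes at the same minimum level, with medians of 0.93 and 1.02. The share with an early return was close to that of all risen genes, which include chosen ones, and the difference was not tested. Of the genes chosen on replicate 1 with a rise of at least 1 in replicate 2, 52.2% had returned at least 50% by 4DPF there, against 50.2% of all genes with that rise. For those chosen on replicate 2 and read in replicate 1 the shares were 57.5% and 57.5%. The labels do not say that replicate numbers link libraries across groups.

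**Figure D5:**
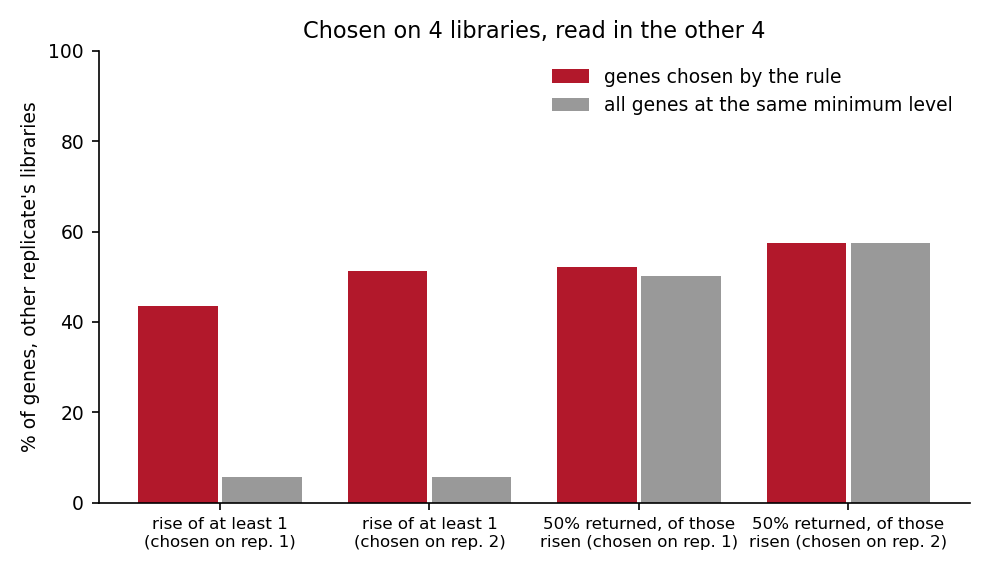
Percent of genes, in the 4 libraries not used for the choice, with a 1DPF rise of at least 1 in log2(CPM + 1), and percent of those risen genes with at least 50% of the rise returned by 4DPF, for genes chosen by the rule on 1 replicate (red) and for all genes at the same minimum level (grey). The red bars for the rise reach 43.6% and 51.2%, far above the grey bars, and the bars for the return are of like height.

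Gene length, which the rule did not use, set the members little apart from other expressed genes. Their median length was 2922 bases (quartiles 1955 and 3934), against 2488 bases in the still raised genes and 2954 in all 10582 genes. Genes of 5000 bases or more made up 15.1% of the members, 13.8% of the still raised genes and 19.9% of the 10582. The shortest member was 504 bases long and the longest 11180. These shares are descriptions, and no difference between the sets was tested.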

How the data were processed

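Poly-A RNA of 8 left ventricle libraries was measured. The deposited table holds whole-number read counts for each gene, and its headers add a length. The submitters' processing notes name HISAT2 2.1.0, featureCounts, Trimmomatic 0.36, DESeq2 1.36.0 and SAMtools 1.8. The build, the annotation, the strand setting and how multi-mapping reads were treated: none is given in the sources used here, so counts of overlapping, antisense or near-identical genes are uncertain. Columns were matched to samples through the description labels.

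The members and lists were chosen with earlier results of these data known. CPM was the count scaled to the column total, and 1 read was worth 0.0237 to 0.0301 CPM. Group differences of log2(CPM + 1) and fits differ, since the fits used TMM factors and a prior count. The gap can be large where a level is low, because the 1 added to CPM shrinks such rises. For gene 103064339 the rise was 4.28 by group means and 5.36 in the edgeR fit. Of 21368 genes, 16986, among them all 179 members, passed filterByExpr (minimum count 10, minimum total 15) and entered 1 edgeR quasi-likelihood fit of all 8 libraries with group as the sole term (edgeR 4.0.16, R 4.3.3, 4 residual degrees of freedom). All p-values were two-sided, adjusted by Benjamini-Hochberg over all tested genes, and a gene was called under 0.05. Each SE of an edgeR log2 change was worked back from the test, as the size of the change over the square root of its F statistic. It is therefore not a measure of spread separate from the p-value. Alternatives were DESeq2 1.42.0, RLE factors, no filter, the replicate number as a block, each library left out, and, for the choice of members, TMM sizes, a pseudocount of 0.5 and other limits for the return. The scripts were tested on simulated data, in which every gene had the same spread between libraries. That test checked the code and not the calls in these data. With 1 library left out, its partner was assumed to vary like the other groups.

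The 2 libraries of a group differed by more than 1 library read again would: their counts gave a chi-square of 50.8 to 70.4 for each degree of freedom. The comparison is with sampling of reads alone, so it cannot tell separate snakes from separate preparations of 1 snake. The rule for named genes could not be used in full: identifiers were not paired with names, so only the 2 members with the largest rise and the 2 with the lowest 4DPF level relative to fasted are printed by number. The 37 gene lists and 13 promoter motifs that had been prepared could not be matched and were not used here.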

Additional observations from a re-analysis of the deposited data

How the results depend on the processing

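The number of members, 179, was 284 without 1DPF replicate 2 and between 169 and 284 over all libraries left out, including all replicate 1 or all replicate 2 libraries at once. It stayed within 1.5 times with TMM library sizes, a pseudocount of 0.5 and return limits of 40% and 60%. Which genes were members changed more. Of the 179, 159 stayed with TMM sizes and 173 with the pseudocount of 0.5. Without 1DPF replicate 1, 143 stayed, and without 1DPF replicate 2, 139 did. Without all replicate 1 libraries 110 stayed, and without all replicate 2 libraries 98 did. The median return of 67.8% lay between 65.1% and 69.8% with 1 library left out. For this range the 179 members chosen on all libraries were kept and not chosen again. The rule had already set a lower limit on their return, so the narrow range follows in part from the choice. With each library left out, calls higher at 1DPF than fasted ranged from 85 to 168, lower at 4DPF than 1DPF from 2 to 72, lower at 6DPF than 1DPF from 136 to 174, and at 4DPF against fasted from 0 to 22 (edgeR; main counts 166, 92, 171 and 28). For 6DPF against 4DPF and 6DPF against fasted edgeR called 0 in every such fit. DESeq2 called 146 at 4DPF against 1DPF, 53 at 4DPF against fasted and 51 at 6DPF against 4DPF. With the replicate number as a term (replicate block), 59 were called at 4DPF against 1DPF and 15 at 4DPF against fasted, and the other counts stayed within 1.5 times. Replicate differences correlated across genes at 0.43 between 4DPF and 6DPF, at -0.34 between 1DPF and 4DPF and at -0.2 to 0.086 in the other pairs, so the numbers were not taken as pairs. Gene 103064339 missed the threshold at 1DPF against fasted (edgeR adjusted p = 0.0511) and passed it under 5 alternatives. The cause of these shifts was not tested. With a library left out or the replicate number as a term, no share of calls over all tested genes is given. Shifts in the members' calls are therefore not read as particular to them.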
